A study of Mus musculus with 90 samples.

Results

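Glutathione S-transferases (GST), UDP-glucuronosyltransferases (UGT) and sulfotransferases (SULT) attach glutathione, glucuronic acid or sulfate to drugs, steroids, bile pigments and reactive by-products. Among 24475 genes in each of 2 tables of mouse liver RNA, 62 protein-coding genes of these families were followed. They were chosen by symbol, as Gsta, Gstk, Gstm, Gsto, Gstp or Gstt, Ugt1a, Ugt2a, Ugt2b or Ugt3a, or Sult with a number, in both tables, with Gstz1 left out and no measured value used. The 62 genes comprise 21 GST, 20 UGT and 21 SULT genes. Ugt1a8 also matches these symbols and was not analysed here.

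The livers came from mice injected with AAV8 vectors carrying short hairpin RNAs (shRNA) against parts of the glucagon receptor pathway, and mRNA was sequenced in 90 libraries, 10 in each of 9 groups. Experiment 1 had 5 groups, labelled Gcgr KD (glucagon receptor knockdown), Gnas KD (the stimulatory G protein alpha subunit), PKA KD (protein kinase A), Epac2 KD (a cAMP-activated exchange factor encoded by Rapgef4) and Control. Experiment 2 had 4 groups, which crossed 2 vectors with 2 antibodies: Prkar1a KD + Gcgr mAb, Prkar1a KD + Control mAb, Control AAV + Gcgr mAb and Control AAV + Control mAb. Prkar1a encodes an inhibitory regulatory subunit of protein kinase A, and its knockdown is the study's way to activate the kinase; Gcgr mAb is its way to inhibit the glucagon receptor. All groups of experiment 2, controls included, received a vector and an antibody. AAV8 enters mainly hepatocytes in mouse liver. The promoter driving the shRNA, the cargo of the control vector, the doses, the interval to collection, and the age, sex and strain of the mice were not stated in the labels. Libraries of a group are numbered without saying whether a number stands for a mouse of its own, and the spread behind the p-values may therefore be technical.

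Glucagon acts on hepatocytes through its receptor, Gs alpha, cAMP and then protein kinase A or Epac2. Conjugation is the step that makes lipophilic compounds soluble enough for export into bile or blood. Its genes are textbook targets of nuclear receptors (CAR and PXR), of the aryl hydrocarbon receptor (AhR), of the oxidative stress factor NRF2 and of hepatocyte factors such as HNF1 and HNF4. Many of them differ between male and female mouse liver.

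Total expected counts per library ranged over 20813066 to 33709500.0 in experiment 1 and 8870340.0 to 19481413 in experiment 2. Each targeted transcript was lower in its own knockdown group with no overlap between libraries. Median levels were 44.9 CPM (counts scaled to a common library total) for Gcgr in Gcgr KD against 172 CPM in Control, 44.7 against 359 CPM for Gnas in Gnas KD, 9.44 against 95.7 CPM for Prkaca and 8.94 against 40.4 CPM for Prkacb in PKA KD, and 8.82 against 89.0 CPM for Rapgef4 in Epac2 KD. Prkar1a reached a median of 32.8 CPM in Prkar1a KD + Control mAb, against 122 CPM in Control AAV + Control mAb. Albumin (Alb) stood between 12262 and 88395 CPM in every library. By their distance from their group's other libraries, 4 libraries stood apart: PKA KD replicate 3, Control AAV + Gcgr mAb replicates 2 and 3, and Control AAV + Control mAb replicate 10. Named genes whose calls change without them are given with both values, beside the result or after the report. In bulk liver RNA, fewer cells of a type and less RNA per cell cannot be told apart.

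The start regions of 5 genes are shown because main contrasts below fall on them. Ugt1a9 and Ugt1a1 are alternative first exons of a single locus whose transcripts moved in opposite directions, Gsta1 and Gsta2 are near-copies, and Gstp1 was the abundant GST with the largest rise. Each sequence runs 5′ to 3′ from 250 bases before to 50 bases after the annotated start, from RefSeq for GRCm38.p6. The regions are chr1:88070529-88070828 (plus strand) for Ugt1a9, chr1:88211709-88212008 (plus) for Ugt1a1, chr9:78230419-78230718 (plus) for Gsta1, chr9:78347096-78347395 (minus) for Gsta2 and chr19:4037863-4038162 (minus) for Gstp1. Capitals mark motif matches: GCGTG, the core of the xenobiotic response element bound by AhR, in Gsta1, Gsta2 and Gstp1, and a STAT motif match further upstream in Gsta1.
Ugt1a9: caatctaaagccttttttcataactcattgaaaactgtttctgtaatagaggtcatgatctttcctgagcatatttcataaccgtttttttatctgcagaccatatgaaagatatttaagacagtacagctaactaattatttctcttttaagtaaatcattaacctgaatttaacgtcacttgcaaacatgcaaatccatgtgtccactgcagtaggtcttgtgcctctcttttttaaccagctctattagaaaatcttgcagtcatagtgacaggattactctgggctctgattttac
Ugt1a1: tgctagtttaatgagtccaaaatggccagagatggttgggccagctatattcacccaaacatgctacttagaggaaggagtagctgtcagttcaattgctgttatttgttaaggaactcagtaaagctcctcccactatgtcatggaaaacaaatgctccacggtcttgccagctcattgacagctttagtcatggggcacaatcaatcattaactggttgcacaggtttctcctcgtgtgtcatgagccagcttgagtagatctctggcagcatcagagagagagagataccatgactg
Gsta1: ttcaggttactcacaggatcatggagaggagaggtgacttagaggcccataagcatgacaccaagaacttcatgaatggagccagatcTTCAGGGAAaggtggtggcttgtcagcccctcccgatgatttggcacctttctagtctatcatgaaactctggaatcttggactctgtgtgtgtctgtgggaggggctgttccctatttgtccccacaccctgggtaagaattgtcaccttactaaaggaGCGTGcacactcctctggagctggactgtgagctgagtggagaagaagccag
Gsta2: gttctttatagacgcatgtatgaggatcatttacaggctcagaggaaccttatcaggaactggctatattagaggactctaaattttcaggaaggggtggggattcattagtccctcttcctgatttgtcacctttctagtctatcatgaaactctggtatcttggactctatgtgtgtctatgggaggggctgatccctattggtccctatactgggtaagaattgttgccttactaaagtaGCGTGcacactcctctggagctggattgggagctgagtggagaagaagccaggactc
Gstp1: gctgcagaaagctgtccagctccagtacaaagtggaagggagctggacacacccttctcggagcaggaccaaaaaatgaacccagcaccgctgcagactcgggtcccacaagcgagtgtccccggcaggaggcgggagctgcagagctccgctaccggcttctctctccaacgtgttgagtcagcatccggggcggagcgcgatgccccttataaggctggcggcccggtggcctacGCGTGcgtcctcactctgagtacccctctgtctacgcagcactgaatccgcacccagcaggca

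Ugt1a9 and Ugt1a1 shared no run longer than 10 bases in these windows, whereas Gsta1 and Gsta2 shared a run of 29 bases. The GC content was 34.3% for Ugt1a9, 45.3% for Ugt1a1, 51% for Gsta1, 45.7% for Gsta2 and 62.7% for Gstp1. The GCGTG match began 2 bases upstream of the start in Gsta1, 7 in Gsta2 and 13 in Gstp1, and the STAT match began 162 bases upstream in Gsta1. Start regions were found for 54 of the 62 genes, in 64 windows, and not for 8, Sult2a7 among them.

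Motifs were searched on both strands. The antioxidant response element core TGACNNNGC, the site type of NRF2, occurred in 4.69% of the members' windows, in Gsta3, Gstm5 and Gstm7, and in 12.4% of all 32851 windows. GCGTG occurred in 18.8% of the members' windows, those of 10 genes, and in 32.4% of all windows. The STAT motif TTCNNNGAA occurred in 6.25% of the members' windows (Gsta1, Gstm6, Sult3a1 and Ugt1a6a) and in 8.30% of all. The full palindromic cAMP response element TGACGTCA was found in none of the members' windows and in 1.79% of all, and the HNF1 motif in none and in 0.00913%. In Gstm5 the antioxidant and xenobiotic matches overlap. These are exact matches of fixed letters, in a short window only. The exact HNF1 motif is so rare, in 3 of all 32851 windows, that a match among the members' 64 windows was very unlikely beforehand. Its absence there therefore cannot tell whether these genes hold HNF1-like sites. Forms of a motif with another base at a fixed position were not searched, so lower-case stretches may hold such forms.

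Of the 62 genes, 45 passed the filter on low counts in each experiment: 19 GST, 18 UGT and 8 SULT genes. The other 17 were not tested: Sult2a1 to Sult2a6, Sult2b1, Sult3a1, Sult3a2, Sult4a1, Sult1c1, Sult6b1, Sult6b2, Gstt4, Gsto2, Ugt2a1 and Ugt2a2. Sult1c1, Sult3a2 and Sult6b2 had 0 counts in every library of both experiments. Per kilobase of transcript, Gstm1 led the Control libraries of experiment 1 with a mean of 1558 CPM per kb, followed by Gstp1 at 1004 and Gsta3 at 998 CPM per kb. In Control AAV + Control mAb of experiment 2, Gsta3 led with 1297 CPM per kb, followed by Gstm1 at 1284 and Gstp1 at 763 CPM per kb. Gsta3 encodes the alpha-class enzyme that conjugates aflatoxin epoxide in mice. Among UGT genes, Ugt1a1 ranked highest per kb in experiment 1 and Ugt2b5 in experiment 2.

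Close copies limit the reading of some members. In 23 members, more than 20% of the 50-base stretches of the transcript also occur in another gene. The share was 62% for Ugt1a9 and 58.2% for Ugt1a1, through the exons that Ugt1a transcripts share. For Ugt1a6a it was 100%, so that no stretch was its own. It was 89.7% for Gsta1, 64.2% for Gsta2 and 62.3% for Gstp1, which shares its stretches with Gstp2. Reads from such stretches may have been divided between genes by the authors' counting. Deposited values of 22 members were not whole numbers in over 90% of the libraries of both experiments. Values of Ugt1a, Gsta1, Gsta2, Gstp1 and Gstp2 are uncertain to the extent that reads were divided. So are those of Ugt2b5 (41.7%), Ugt2b38 (37.4%), Gstm3 (28.8%) and Gstm1 (23.1%). Gstm2, Gstm6, Ugt2a3, Ugt2b34, Ugt2b36, Ugt2b37 (18.3%), Ugt3a1 and Ugt3a2, with fewer shared stretches, also had values that were not whole in 100% of the libraries. Gstt3 shared 26.0% of its stretches, but its values were whole in every library. Sult2a7, Sult2a8, Gsta3, Gsta4 and Gstk1 shared no such stretch, and Sult1a1 shared 7.72%.

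The comparisons of experiment 2 ask how activation of protein kinase A in the liver changes these genes, and how it changes the response to the receptor antibody. With Control mAb, Prkar1a KD raised 11 and lowered 25 of the 45 tested conjugation genes (edgeR quasi-likelihood test, Benjamini-Hochberg adjusted p under 0.05 over all tested genes). Across all 12847 tested genes, 29.3% rose and 26.9% fell, so that 56.2% were called in either direction, against 80% of the members. The median log2 fold change was −0.51 over the members and 0.02 over all genes, and the median absolute change was 0.86 against 0.30. Falls were spread over 10 of 19 GST, 11 of 18 UGT and 4 of 8 SULT genes, and rises over 7 GST, 2 UGT and 2 SULT genes. Every knockdown library lay above every control library for 6 members and below for 10, beside 7.8% and 7.27% of all genes.

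**Figure D1:**
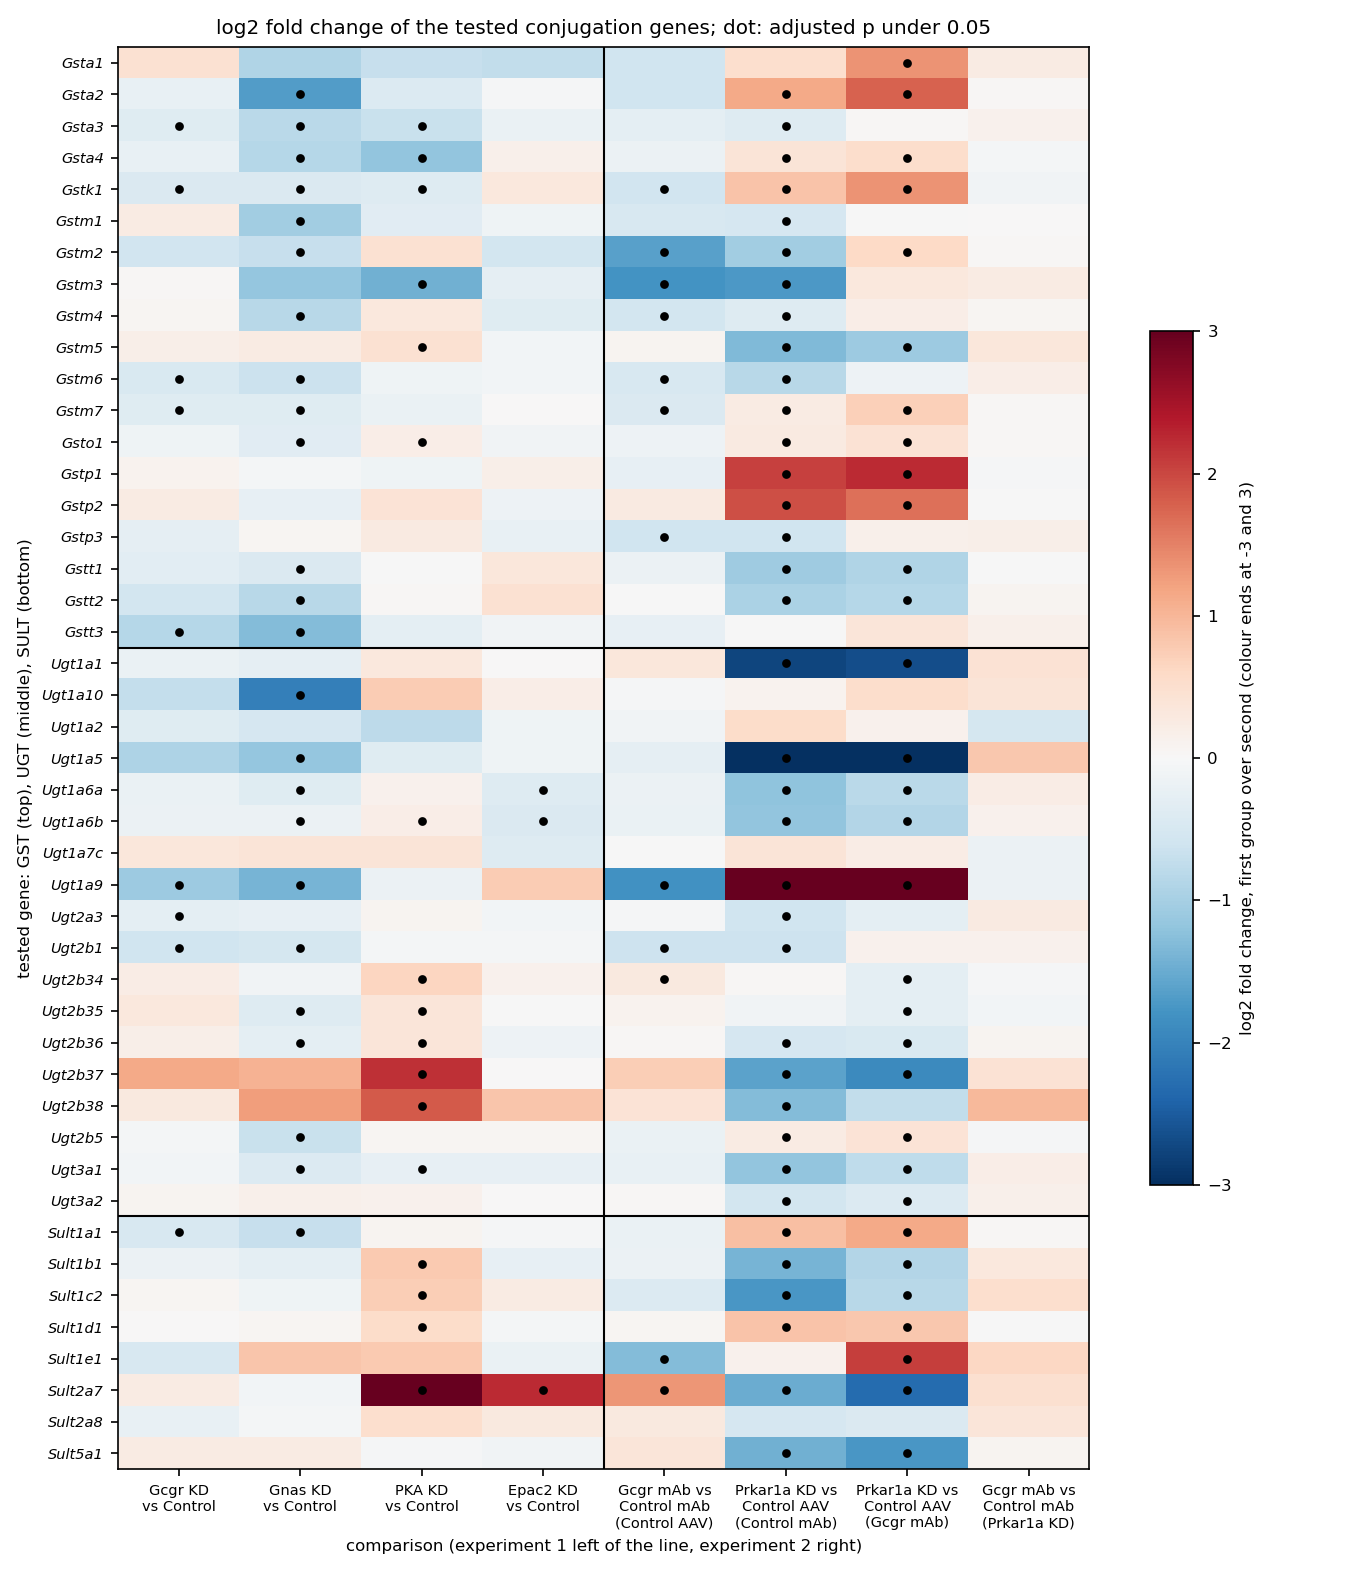
Log2 fold changes of the 45 tested conjugation genes (down the page, GST, UGT, SULT) in 8 comparisons (across, experiment 1 left of the line), first group over second, red higher and blue lower, colour ending at -3 and 3, with a dot where the adjusted p was under 0.05. The Gnas KD column holds 24 dots, all on falls, the Prkar1a KD columns hold dark cells in both colours, and the last column, Gcgr mAb against Control mAb in Prkar1a KD, holds no dot.

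The UGT1A locus on chromosome 1 showed the widest split. Ugt1a9 (chr1:88070779-88220002) encodes an enzyme whose human counterpart glucuronidates phenols and many drugs. It had 288, 427 and 531 CPM in the lowest, median and highest library of Prkar1a KD + Control mAb, against 18.4, 42.5 and 87.3 CPM in Control AAV + Control mAb; groups of 3 values below follow this order. The groups did not overlap, and the means were 430 ± 64.1 and 45.4 ± 19.6 CPM (SD, n = 10 each). The log2 fold change was 3.24 ± 0.19 (SE, adjusted p = 2.28e-17).

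Ugt1a1 (chr1:88211959-88220002), the bilirubin-conjugating enzyme, went the other way. Its values were 48.6, 74.7 and 111 CPM in Prkar1a KD + Control mAb, against 437, 522 and 642 CPM in Control AAV + Control mAb. Every knockdown library was below every control library, and the log2 fold change was −2.75 ± 0.15 (adjusted p = 3.21e-18).

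Ugt1a5 fell furthest, by 4.33 ± 0.32 on the log2 scale (adjusted p = 2.31e-14). It had 2.18, 4.49 and 5.77 CPM in Prkar1a KD + Control mAb, against 61.4, 80.6 and 126 CPM in Control AAV + Control mAb. Ugt1a6a and Ugt1a6b, whose rat and human counterparts conjugate small planar phenols, fell by 1.21 and 1.19 (adjusted p = 1.16e-14 and 4.28e-14). Ugt1a6a had 65.7, 76.7 and 101 CPM in Prkar1a KD + Control mAb, against 149, 184 and 210 CPM in Control AAV + Control mAb. For Ugt1a6b the values were 57.1, 69.9 and 87.6 CPM, against 139, 165 and 172 CPM. None of these 3 genes overlapped between the groups. Ugt1a2, Ugt1a7c and Ugt1a10, all scarce, were not called, with log2 fold changes of 0.55 (95% confidence interval −0.37 to 1.47), 0.39 (−0.36 to 1.13) and 0.10 (−0.61 to 0.80).

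The make-up of the locus therefore changed while its total fell less. Ugt1a9 took 64.5% ± 5.1 of all CPM assigned to Ugt1a genes in Prkar1a KD + Control mAb, against 4.55% ± 1.9 in Control AAV + Control mAb (mean ± SD, n = 10 each). For Ugt1a1 the shares were 11.6% ± 3.2 and 52.3% ± 4.4. The summed Ugt1a level averaged 664 CPM in the knockdown and 998 CPM in the control, a ratio of 0.665, with no overlap. These shares are of counts without correction for length, and apart from Ugt1a7c the annotated transcripts are of similar length (2190 bases for Ugt1a9, 2224 for Ugt1a1). The labels do not state how reads of the shared exons were divided between the Ugt1a genes.

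**Figure D2:**
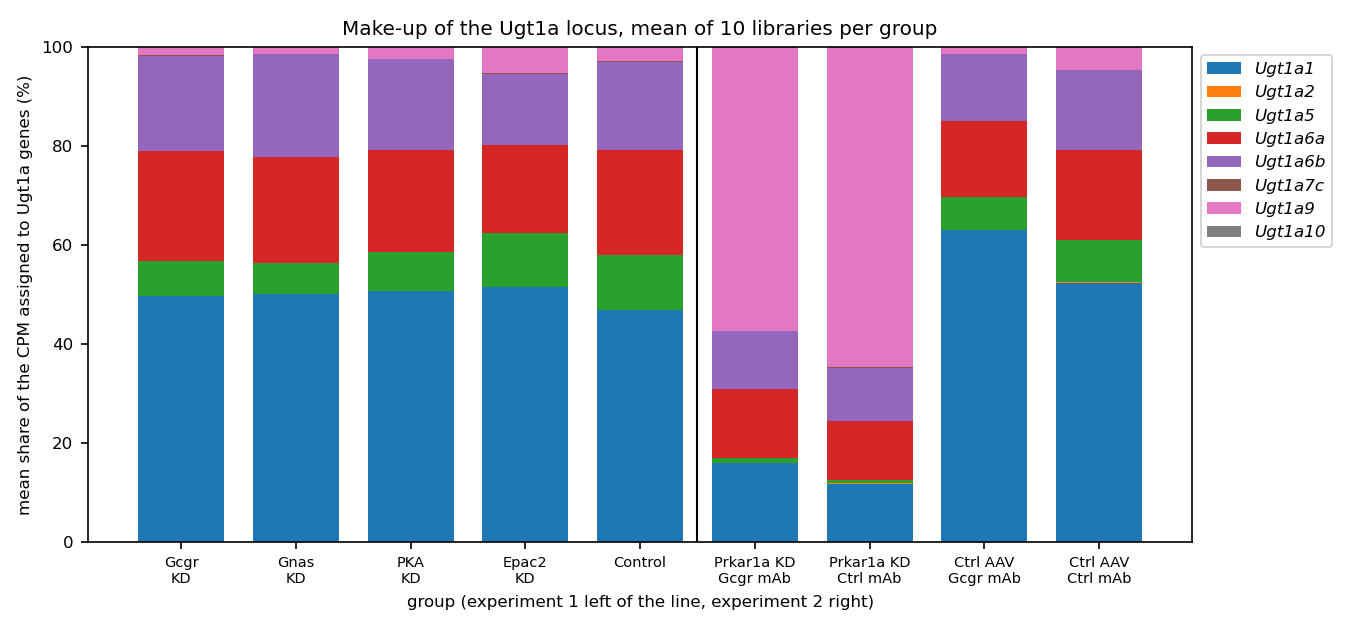
Mean share of the CPM assigned to Ugt1a genes taken by each gene (stacked, percent of the locus total) in the 9 groups, mean of 10 libraries each, experiment 1 left of the line. Ugt1a9 takes 57.1% and 64.5% in the Prkar1a KD groups, against 1.32% and 4.55% in the Control AAV groups, and between 1.40% and 5.25% in the 5 groups of experiment 1.

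Outside the locus, Ugt2b5 was the other UGT gene that rose, by a log2 fold change of 0.25. Ugt3a1, whose human counterpart uses UDP-N-acetylglucosamine as donor, had 33.9, 65.9 and 91.5 CPM in Prkar1a KD + Control mAb, against 96.8, 150 and 175 CPM in Control AAV + Control mAb. It fell by 1.18 (adjusted p = 1.38e-07) with no overlap. Of the 7 Ugt2b genes, which handle steroids, bile acids and fatty acids, Ugt2b1 (−0.62), Ugt2b36 (−0.50), Ugt2b37 and Ugt2b38 fell. Ugt2b37 had 0.0576, 0.393 and 0.697 CPM in Prkar1a KD + Control mAb, against 0.628, 1.07 and 2.67 CPM in Control AAV + Control mAb (−1.61, adjusted p = 1.79e-05). Ugt2b38 had 0.193, 0.627 and 1.15 CPM, against 0.359, 1.11 and 3.11 CPM (−1.31, adjusted p = 0.00753). Both are scarce, and their groups overlapped. Ugt2a3 (−0.60) and Ugt3a2 (−0.54) also fell.

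Among GST genes, Gstp1 (chr19:4035411-4037912), the pi-class enzyme known for conjugating electrophiles and for its role in hepatocarcinogenesis models, had 1964, 2677 and 2932 CPM in Prkar1a KD + Control mAb. Its values were 442, 628 and 1044 CPM in Control AAV + Control mAb. The groups did not overlap, and the log2 fold change was 2.05 ± 0.17 (adjusted p = 2.67e-13). Gstp2, its near-copy, rose by 1.92 (adjusted p = 1.54e-08) at 5.54, 8.55 and 14.9 CPM in Prkar1a KD + Control mAb, against 1.73, 2.23 and 3.83 CPM in Control AAV + Control mAb. Gstp3 fell by 0.61. The summed Gstp level averaged 2611 CPM in the knockdown and 647 CPM in the control, a ratio of 4.04.

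Gstk1 (chr6:42245935-42250441), the kappa-class enzyme of mitochondria and peroxisomes, had 252, 272 and 323 CPM in Prkar1a KD + Control mAb, against 132, 149 and 187 CPM in Control AAV + Control mAb. The log2 fold change was 0.86 ± 0.10 (adjusted p = 2.02e-09), with no overlap. The alpha-class gene Gsta2 had 27.9, 57.3 and 142 CPM in the knockdown and 14.7, 32.9 and 51.5 CPM in the control. It rose by 1.14 ± 0.29 (adjusted p = 0.000967), with overlapping groups. Gsta4, whose enzyme conjugates the lipid peroxidation product 4-hydroxynonenal, rose by 0.40 (adjusted p = 0.0351), and Gsta3 fell by 0.39. Gsto1 and Gstm7 rose by 0.26 each.

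The mu and theta classes mostly fell. Of the 7 Gstm genes, Gstm7 rose and the other 6 fell. Gstm5 had 1.94, 3.13 and 4.35 CPM in Prkar1a KD + Control mAb, against 5.5, 7.62 and 9.67 CPM in Control AAV + Control mAb (−1.34, adjusted p = 5.58e-12). Gstm3 had 19.3, 43.3 and 92.3 CPM, against 21.3, 148 and 282 CPM (−1.71, adjusted p = 0.00438). Gstm5 did not overlap between the groups, and Gstm3 did. Gstm2 had 45, 77.3 and 84.6 CPM in the knockdown and 54.2, 138 and 302 CPM in the control (−1.05, adjusted p = 3.54e-05), also with overlap. Gstt1, a theta-class enzyme that acts on small halogenated compounds, had 108, 126 and 148 CPM in Prkar1a KD + Control mAb, against 230, 262 and 325 CPM in Control AAV + Control mAb. It fell by 1.08 ± 0.088 (adjusted p = 1.84e-13) with no overlap. Gstt2 fell by 0.95, whereas Gstt3 was not called.

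Of the 8 tested SULT genes, Sult1a1 and Sult1d1 rose and Sult1b1, Sult1c2, Sult2a7 and Sult5a1 fell. Sult1a1 (chr7:126672865-126690443), the phenol sulfotransferase, had 347, 420 and 515 CPM in Prkar1a KD + Control mAb, against 173, 229 and 283 CPM in Control AAV + Control mAb. It rose by 0.90 ± 0.094 (adjusted p = 1.12e-10), with no overlap. Sult1d1, which sulfates catecholamines in mice, averaged 224 CPM in the knockdown and 123 CPM in the control (0.86 ± 0.11, adjusted p = 3.09e-08), with no overlap either. Sult1b1, which acts on thyroid hormones and phenols, had 10, 11.8 and 17.5 CPM in Prkar1a KD + Control mAb, against 26.7, 33 and 42.2 CPM in Control AAV + Control mAb. It fell by 1.39 (adjusted p = 7.16e-11). Sult1c2 had 0.691, 1.82 and 4.46 CPM, against 6.29, 7.62 and 9.39 CPM (−1.76, adjusted p = 5.31e-08). Neither gene overlapped between the groups.

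Sult2a7 (chr7:14465051-14493023) belongs to the hydroxysteroid and bile acid sulfotransferases. It had 0.345, 0.531 and 0.997 CPM in Prkar1a KD + Control mAb, against 0.946, 1.72 and 2.21 CPM in Control AAV + Control mAb, a fall of 1.48 ± 0.31 (adjusted p = 9.07e-05). Only the extremes of the groups overlapped. Sult5a1 had 1.23, 1.88 and 4.67 CPM in the knockdown and 1.89, 5.65 and 12.7 CPM in the control (−1.45, adjusted p = 7.72e-05), with overlap. Sult2a8, the abundant member described as the main bile acid sulfotransferase of mouse liver, was not called at −0.51 (95% confidence interval −0.98 to −0.04, adjusted p = 0.0659).

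**Figure D3:**
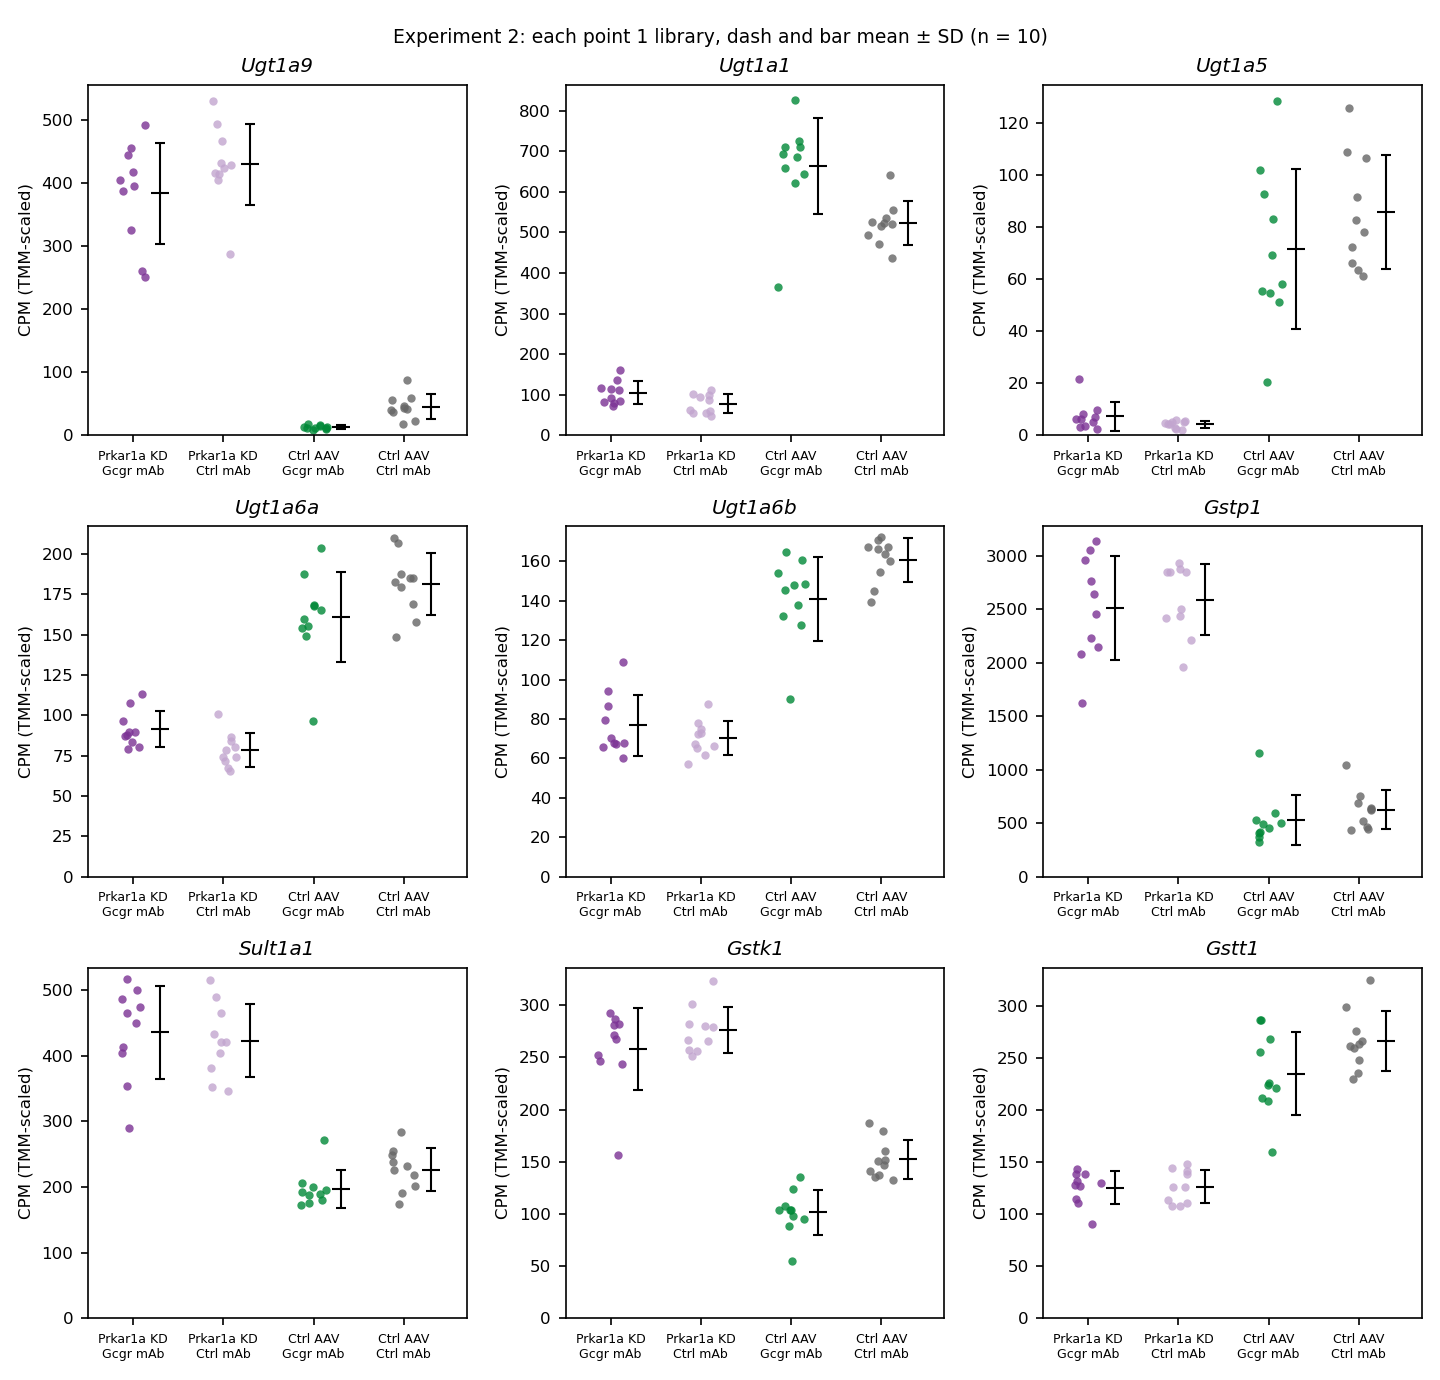
CPM of 9 conjugation genes in experiment 2, 1 point per library in 4 groups of 10, with a dash and bar for mean ± SD; each panel has its own axis starting at 0. Ugt1a9, Gstp1, Sult1a1 and Gstk1 sit higher in the Prkar1a KD groups, and Ugt1a1, Ugt1a5, Ugt1a6a, Ugt1a6b and Gstt1 sit lower; Ugt1a9 spans 8.75 to 18.7 CPM in Control AAV + Gcgr mAb and 18.4 to 87.3 CPM in Control AAV + Control mAb.

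Libraries of the Prkar1a KD groups also differed in other transcripts. Of 6 hepatocyte markers, Alb (−1.44), Apoa1 (−1.87) and Ttr (−1.76) fell, Cps1 (1.39) and Ass1 (0.92) rose and 1 was not called; their sum ranged over 32641 to 46063 CPM in Prkar1a KD + Control mAb and 71194 to 83211 CPM in Control AAV + Control mAb. All 4 tested of 5 erythroid markers fell, with sums of 49.7 to 458 CPM against 414 to 1152 CPM. Of 7 stellate cell and fibroblast markers, 3 fell, with sums of 228 to 345 CPM against 288 to 424 CPM. No marker of these 3 lists was at 0 in every library of a group. Their part in the conjugation results was not tested.

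With Gcgr mAb present in both groups, Prkar1a KD raised 14 and lowered 17 of the 45 genes, beside 26.5% and 26.6% of all tested genes, 53.1% in either direction. Over the members the median log2 fold change was 0.05, and over all genes −0.01. The groups did not overlap for 5 members above and 3 below, beside 6.0% and 4.43% of all genes. Ugt1a9 had 251, 400 and 493 CPM in Prkar1a KD + Gcgr mAb, against 8.75, 12.6 and 18.7 CPM in Control AAV + Gcgr mAb. That was a rise of 4.89 ± 0.21 on the log2 scale (adjusted p = 4.46e-22) with no overlap. Ugt1a1 had 71.1, 101 and 162 CPM, against 366, 689 and 826 CPM (−2.66, adjusted p = 4.31e-18), and Ugt1a5 had 2.26, 6.3 and 21.6 CPM, against 20.7, 63.8 and 129 CPM (−3.28). Ugt1a1 did not overlap between the groups, and Ugt1a5 overlapped by its extremes.

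Of the 19 GST genes, 9 rose and 3 fell in this comparison. Gstp1 had 1630, 2552 and 3138 CPM in Prkar1a KD + Gcgr mAb, against 328, 478 and 1159 CPM in Control AAV + Gcgr mAb (2.25, adjusted p = 2.33e-14). Gsta1 had 9.64, 31.1 and 82.4 CPM, against 2.26, 11 and 49 CPM (1.35 ± 0.48, adjusted p = 0.018), and its near-copy Gsta2 had 39.6, 73.7 and 97.2 CPM, against 5.04, 19.7 and 43.2 CPM (1.78, adjusted p = 3.78e-06). Gstp1 did not overlap, and the Gsta genes did. Gstk1 rose by 1.35 (adjusted p = 2.04e-14), Gstm7 by 0.72 and Gstm2 by 0.60, while Gstm5 (−1.08), Gstt1 (−0.91) and Gstt2 (−0.86) fell. Gstm3 was not called with all libraries (0.32, adjusted p = 0.611) and was called at 1.20 without Control AAV + Gcgr mAb replicate 2.

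Sulfotransferases split again under Gcgr mAb, with Sult1e1 (2.07 ± 0.40, adjusted p = 2.99e-05), Sult1a1 (1.14) and Sult1d1 (0.80) higher in Prkar1a KD. Sult1e1, the estrogen sulfotransferase, is scarce, at 0.205, 1.17 and 2.43 CPM in Prkar1a KD + Gcgr mAb, against 0, 0.242 and 0.687 CPM in Control AAV + Gcgr mAb. Sult2a7 had 0.316, 0.907 and 1.49 CPM, against 0.166, 4.06 and 7.37 CPM (−2.31, adjusted p = 1.2e-08). Sult5a1 (−1.73), Sult1b1 (−0.88) and Sult1c2 (−0.84) also fell. The groups of Sult1e1 and Sult2a7 overlapped. In this comparison 6 of 7 stellate cell and fibroblast markers, 5 of 6 endothelial and 4 of 7 Kupffer cell and macrophage markers fell, with stellate sums of 211 to 323 CPM in Prkar1a KD + Gcgr mAb against 248 to 898 CPM in Control AAV + Gcgr mAb; their part was not tested.

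Gcgr mAb alone, with the control vector, raised 2 and lowered 10 of the 45 genes, beside 2.92% and 5.27% of all tested genes, 8.19% in either direction. The median log2 fold change was −0.19 over the members and 0.01 over all genes. Ugt1a9 had 8.75, 12.6 and 18.7 CPM in Control AAV + Gcgr mAb, against 18.4, 42.5 and 87.3 CPM in Control AAV + Control mAb, and fell by 1.81 ± 0.18 (adjusted p = 4.16e-09). Only the extremes of the groups overlapped. Ugt1a1 was not called at 0.35 (95% confidence interval 0.07 to 0.63, adjusted p = 0.129). Ugt2b1 fell by 0.62 and Ugt2b34 rose by 0.30.

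The GST falls under Gcgr mAb comprised 5 of 7 Gstm genes, Gstp3 (−0.59) and Gstk1. Gstm2 had 36.4, 47.1 and 65.1 CPM in Control AAV + Gcgr mAb, against 54.2, 138 and 302 CPM in Control AAV + Control mAb (−1.62 ± 0.21, adjusted p = 6.82e-07). Gstm3 had 13, 27.6 and 239 CPM, against 21.3, 148 and 282 CPM (−1.78 ± 0.51, adjusted p = 0.0224). The highest Gstm3 value came from replicate 2 of the antibody group, and without it the change was −2.67. Gstm3 was not called when its 2 groups were fitted alone (adjusted p = 0.0872). Gstk1 had 55.1, 104 and 135 CPM, against 132, 149 and 187 CPM (−0.59 ± 0.10, adjusted p = 0.000111). Gstm7 averaged 34.0 CPM in the antibody group and 46.0 CPM in the control group (−0.44 ± 0.082, adjusted p = 0.000392) and was the member whose groups did not overlap, where 0.381% of all genes lay wholly below and 0.0856% wholly above. Gstm4 (−0.54) and Gstm6 (−0.48) fell as well.

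Among sulfotransferases, Sult2a7 rose and Sult1e1 fell with Gcgr mAb. Sult2a7 had 0.166, 4.06 and 7.37 CPM in Control AAV + Gcgr mAb, against 0.946, 1.72 and 2.21 CPM in Control AAV + Control mAb (1.32 ± 0.27, adjusted p = 0.00121). Its libraries were far more spread in the antibody group, and limma-voom gave 0.94 (adjusted p = 0.162). Sult1e1 had 0, 0.242 and 0.687 CPM, against 0.359, 0.701 and 1.34 CPM (−1.31 ± 0.41, adjusted p = 0.041). It was no longer called without any of the libraries that stood apart, at −1.15 without Control AAV + Gcgr mAb replicate 2, −1.26 without its replicate 3, −1.18 without Control AAV + Control mAb replicate 10 and −0.95 without all of them. The pancreatic acinar marker sum reached 658.9 CPM in the highest library of Control AAV + Gcgr mAb, with a group median of 12.5 CPM, against 22.1 CPM in the highest library of Control AAV + Control mAb. Of its 5 markers, Prss1 was at 0 in every library of both groups. Stellate cell and fibroblast sums were 248 to 898 CPM in Control AAV + Gcgr mAb and 288 to 424 CPM in Control AAV + Control mAb. The part of these signals in the conjugation results was not tested.

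Within Prkar1a KD, Gcgr mAb changed none of the 45 genes and 0% of all 12847 by edgeR, and DESeq2 and limma-voom also called none. At an unadjusted p under 0.05 there were 8 of the 45 genes and 846 of all. Ugt1a9 differed by −0.16 (95% confidence interval −0.50 to 0.17) and Gstm2 by 0.03 (−0.37 to 0.43). Summed levels in Prkar1a KD + Gcgr mAb and Prkar1a KD + Control mAb averaged 11098 and 10797 CPM over all 62 genes.

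The difference between these antibody effects was tested directly as the interaction, the effect of Gcgr mAb in Prkar1a KD minus its effect in Control AAV. It was called for 8 members, all positive, beside 2.74% of all genes called positive and 1.34% negative, 4.08% in all. DESeq2 and limma-voom also called no negative member, and 1 was negative at an unadjusted p under 0.05. There was 1 negative call without Control AAV + Gcgr mAb replicate 2 and 2 without all libraries of experiment 2 that stood apart, Sult2a7 among the 2 (−1.02, against −0.83 with all libraries). Ugt1a9 (1.65 ± 0.25, adjusted p = 5.21e-05) and Gstm2 (1.65 ± 0.29, adjusted p = 0.000409) had the firmest values. Gstm6 (0.68), Gstm4 (0.59) and Gstm7 (0.46) belong to the mu class too, and Gstk1 (0.49), Ugt2b1 (0.76) and Sult1e1 (1.93 ± 0.54, adjusted p = 0.0325) completed the list. Each of these 8 had fallen with Gcgr mAb under the control vector, in a comparison of libraries that the interaction also uses. Gstk1 lost its call without Control AAV + Control mAb replicate 10 (0.45, adjusted p = 0.0583), and Sult1e1 lost it there (1.80, adjusted p = 0.051) and without all 3 libraries of experiment 2 that stood apart (1.59, adjusted p = 0.0757). Gstm3 was not called (2.03, adjusted p = 0.0925) and was called without Control AAV + Gcgr mAb replicate 2 (2.93, adjusted p = 0.00279).

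The comparisons of experiment 1 ask which of these genes follow loss of each step of the glucagon pathway. They share the Control libraries, so their fold changes are given side by side without any measure of overlap. Gnas KD lowered 24 of the 45 tested genes and raised none, beside 8.32% and 6.83% of all 13574 tested genes that fell and rose, 15.2% in either direction. For 7 members every Gnas KD library lay below every Control library and for none above, beside 1.24% and 0.265% of all genes. DESeq2 and limma-voom also called no rise, and at an unadjusted p under 0.05 there were 2 members higher, Ugt2b37 and Ugt3a2; Ugt2b37 was called (1.04) when these groups were fitted alone. The median log2 fold change was −0.36 over the members and 0.01 over all genes. By class, 13 of 19 GST, 10 of 18 UGT and 1 of 8 SULT genes fell.

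Summed over all 62 genes, the level was 5302 to 6165 CPM in the Gnas KD libraries, against 7133 to 10177 CPM in Control, without overlap, and the ratio of means was 0.682. The Gsta sum averaged 879 CPM in Gnas KD and 1553 CPM in Control, the Gstm sum 1238 and 2463 CPM and the Gstp sum 814 and 844 CPM. Gstm1, the abundant mu-class gene, had 565, 942 and 1584 CPM in Gnas KD, against 1206, 1916 and 3326 CPM in Control. It fell by 1.05 ± 0.21 (adjusted p = 0.000317), with overlapping groups. Gsta3 averaged 831 CPM in Gnas KD and 1454 CPM in Control (−0.81 ± 0.11, adjusted p = 7.57e-07), with no overlap.

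Less abundant GST genes fell too in Gnas KD. Gsta2 had 0.978, 8.09 and 16.1 CPM in Gnas KD, against 10.6, 23.4 and 60.2 CPM in Control (−1.67 ± 0.43, adjusted p = 0.00586). Gstt3 had 14.8, 16.1 and 28.3 CPM, against 29.2, 43.4 and 63.4 CPM (−1.31 ± 0.19, adjusted p = 1.01e-06). Gstt3 did not overlap, and Gsta2 did. Gsta4 had 18.2, 30.5 and 47.2 CPM in Gnas KD, against 36.8, 56 and 91.1 CPM in Control (−0.85, adjusted p = 0.00376). Gstm2 had 36.1, 60.4 and 92.2 CPM, against 64, 87.2 and 196 CPM (−0.69, adjusted p = 0.035, and 0.0506 without the filter on low counts). Gstm4 (−0.84), Gstt2 (−0.82), Gstm6 (−0.63), Gstt1 (−0.44), Gstk1 (−0.43), Gstm7 (−0.35) and Gsto1 (−0.35) also fell. Gstm3 was not called at −1.15 (95% confidence interval −2.11 to −0.19, adjusted p = 0.107), with 18.3, 46.8 and 163 CPM in Gnas KD, against 41.5, 97.2 and 399 CPM in Control. None of the 3 tested Gstp genes was called, and for Gstp1 the change was −0.05 (−0.50 to 0.39).

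Among UGT genes, Ugt1a9 had 3.82, 9.97 and 20.8 CPM in Gnas KD, against 13.4, 25.2 and 48.8 CPM in Control. It fell by 1.40 ± 0.34 (adjusted p = 0.00347). Ugt1a5 had 15.3, 48.7 and 70.1 CPM, against 64.3, 105 and 149 CPM (−1.16 ± 0.34, adjusted p = 0.016), and both genes overlapped by their extremes. Ugt1a10, scarce at means of 0.127 CPM in Gnas KD and 0.537 CPM in Control, fell by 2.04 ± 0.55 (adjusted p = 0.00704). Ugt2b5, the most abundant Ugt2b gene per kb in experiment 2, fell by 0.67 (adjusted p = 4.67e-07) with no overlap. Ugt2b1 (−0.53), Ugt3a1 (−0.42), Ugt2b35 (−0.39), Ugt1a6a (−0.36), Ugt2b36 (−0.29) and Ugt1a6b (−0.17) fell less. Ugt1a1 was not called at −0.27 (95% confidence interval −0.55 to 0.01). The sulfotransferase that fell was Sult1a1 (−0.69, adjusted p = 1.79e-05), with no overlap between the groups.

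**Figure D4:**
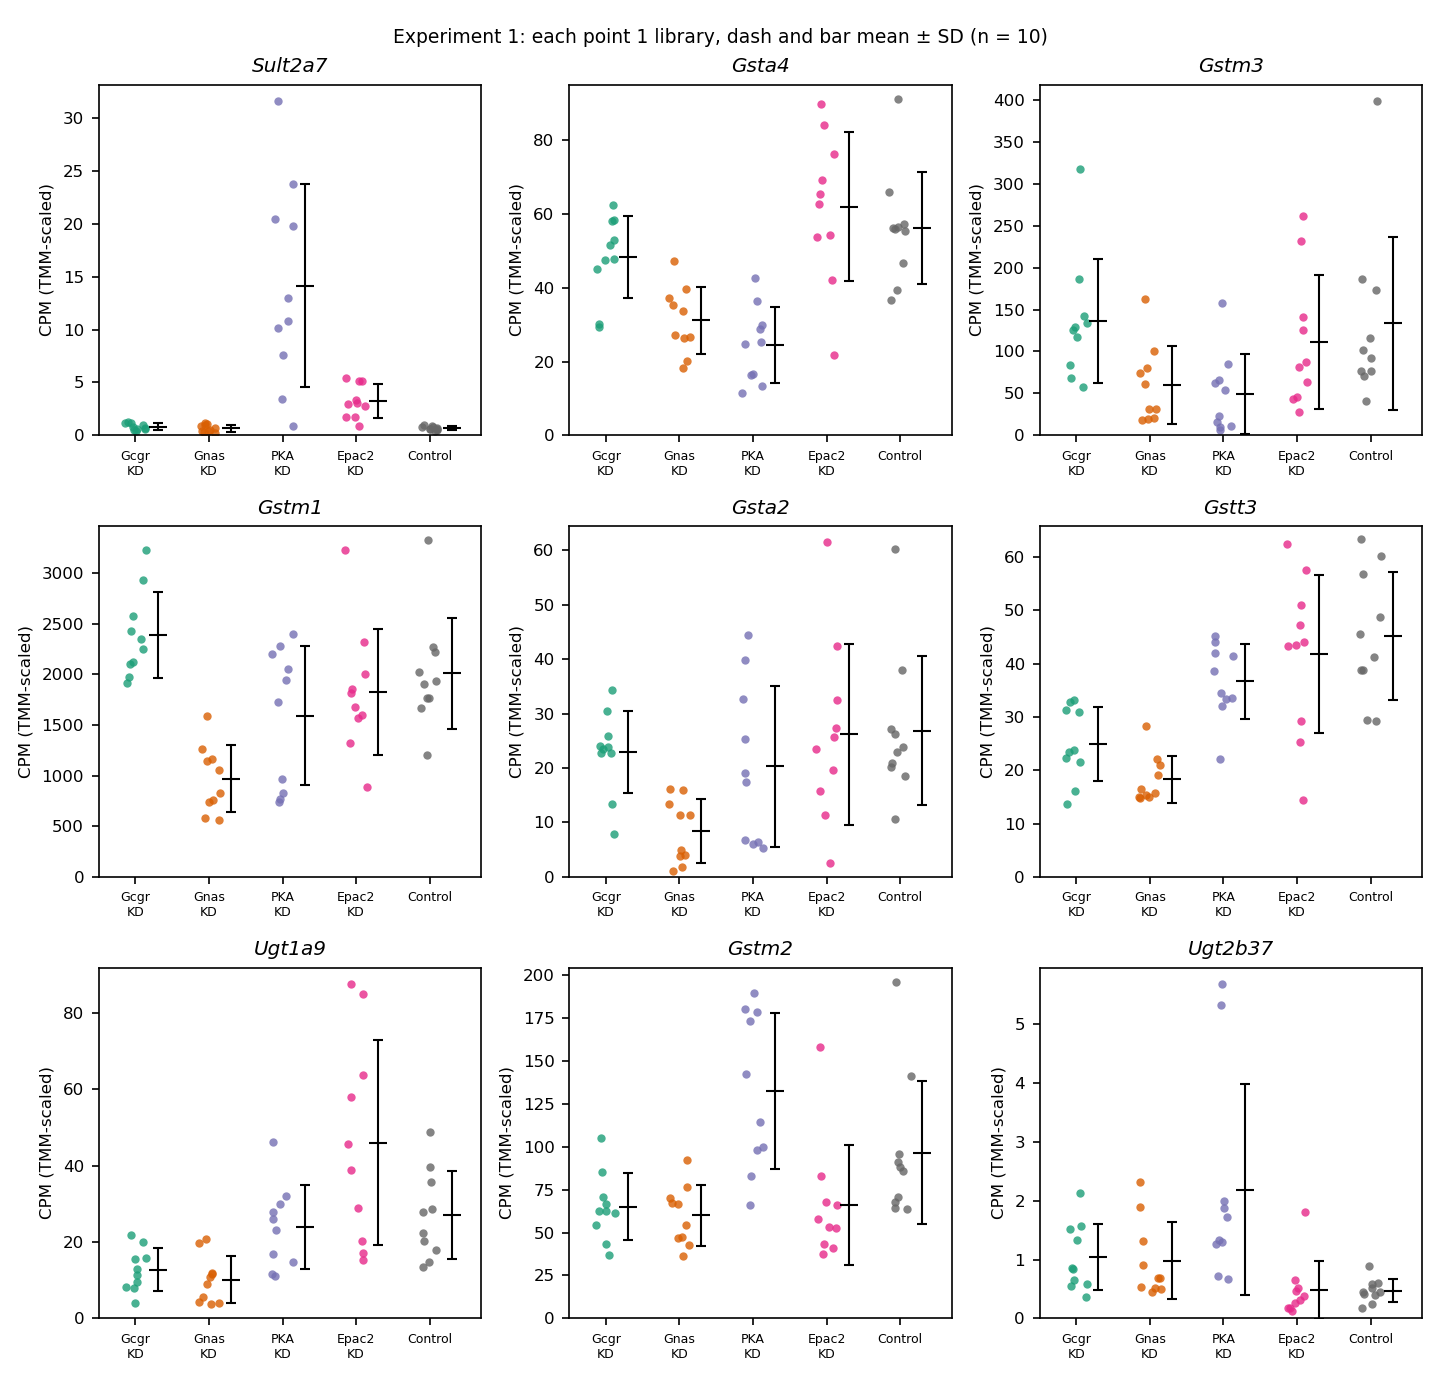
CPM of 9 conjugation genes in experiment 1, 1 point per library in 5 groups of 10, with a dash and bar for mean ± SD; each panel has its own axis starting at 0. Sult2a7 reaches 31.6 CPM in PKA KD and 5.46 CPM in Epac2 KD, against at most 0.968 CPM in Control, and Gstm1, Gsta2 and Gstt3 sit lowest in Gnas KD.

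In the same Gnas KD libraries, 4 of 7 stellate cell and fibroblast markers rose, among them Col1a1 (1.30), Col3a1 (1.02) and Col1a2 (0.97), with sums of 316 to 777 CPM, against 261 to 511 CPM in Control. Of 6 hepatocyte markers, Ass1 fell by 0.62 and none rose, and the sums were 67578 to 105254 CPM against 85954 to 117539 CPM. No marker of these lists was at 0 in every library of a group. Of 5 tested cholangiocyte markers, Spp1 (1.45) and Sox9 (0.60) rose, with a median sum of 86.3 CPM in Gnas KD against 37.2 CPM in Control, and 1 of 7 Kupffer cell and macrophage markers rose, Cd68 (0.57). The part of these markers in the falls was not tested.

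Gcgr KD lowered 9 of the 45 genes and raised none, beside 4.33% and 2.9% of all tested genes, 7.23% in either direction. Over the members the median log2 fold change was −0.17, against 0.01 over all genes, and no member had groups without overlap, where 0.7% of all genes lay wholly below Control and 0.25% above. DESeq2 and limma-voom called no rise either, and 4 members were higher at an unadjusted p under 0.05; Ugt2b37 was called (1.13) when these groups were fitted alone. Without the filter on low counts, 5 falls were called. Ugt1a9 had 4, 12.1 and 21.9 CPM in Gcgr KD, against 13.4, 25.2 and 48.8 CPM in Control (−1.09 ± 0.34, adjusted p = 0.0398), with overlap. Without the filter on low counts its adjusted p was 0.06. Gstt3 had 13.7, 23.6 and 33.1 CPM, against 29.2, 43.4 and 63.4 CPM (−0.86 ± 0.18, adjusted p = 0.00151). Its groups overlapped by their extremes. Sult1a1 (−0.48 ± 0.11, adjusted p = 0.00431), Ugt2b1 (−0.60), Gstm6 (−0.46), Gstk1 (−0.43), Gsta3 (−0.37), Gstm7 (−0.36) and Ugt2a3 (−0.29) completed the falls. Gstm1 was not called, at 1912, 2298 and 3225 CPM in Gcgr KD and a change of 0.25 (95% confidence interval −0.16 to 0.66).

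PKA KD raised 12 and lowered 5 of the 45 genes, beside 17.7% and 14.8% of all tested genes, 32.4% in either direction. The median log2 fold change was 0.12 over the members and 0.01 over all genes. Rises comprised 4 of 8 SULT, 6 of 18 UGT and 2 of 19 GST genes, and falls 4 GST genes and 1 UGT gene. The largest change was that of Sult2a7, with 0.866, 11.9 and 31.6 CPM in PKA KD, against 0.443, 0.64 and 0.968 CPM in Control. The rise was 4.37 ± 0.39 on the log2 scale (adjusted p = 1.23e-12), and 4.48 without PKA KD replicate 3. All but the lowest PKA KD library lay above the highest Control library.

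Sult1b1 averaged 19.5 CPM in PKA KD and 11.3 CPM in Control (0.79 ± 0.12, adjusted p = 3.55e-07) and was the member whose PKA KD libraries all lay above Control, as did 2.34% of all genes, while no member and 3.0% of all genes lay wholly below. Sult1c2 (0.74, adjusted p = 0.00746) and Sult1d1 (0.56, adjusted p = 0.00369) also rose. Sult2a8 was not called at 0.50 (95% confidence interval 0.08 to 0.93). The summed Sult2a level averaged 302 CPM in PKA KD and 203 CPM in Control, a ratio of 1.48, with overlapping groups. Nearly all of the Control sum came from Sult2a8, at a mean of 202.6 CPM.

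Of the 7 Ugt2b genes, 5 rose with PKA KD. Ugt2b37 had 0.675, 1.52 and 5.68 CPM in PKA KD, against 0.168, 0.447 and 0.886 CPM in Control (2.20 ± 0.41, adjusted p = 2.13e-05). Ugt2b38 had 0.289, 1.26 and 12.7 CPM, against 0.123, 0.424 and 4.38 CPM (1.85 ± 0.74, adjusted p = 0.0482), and it lost its call in 5 of 7 alternatives, among them the one without PKA KD replicate 3 (1.54). Both genes are scarce and their groups overlapped. The abundant Ugt2b34 averaged 468 CPM in PKA KD and 297 CPM in Control (0.66 ± 0.09, adjusted p = 6.23e-08). Ugt2b35 (0.37), Ugt2b36 (0.35) and Ugt1a6b (0.19) rose less. Ugt1a9 was not called, with 11, 24.6 and 46.2 CPM in PKA KD, against 13.4, 25.2 and 48.8 CPM in Control (−0.17, 95% confidence interval −0.83 to 0.48).

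Among GST genes Gstm5 (0.45) and Gsto1 (0.19) rose with PKA KD. Gsta4 had 11.4, 25 and 42.7 CPM in PKA KD, against 36.8, 56 and 91.1 CPM in Control. It fell by 1.19 ± 0.21 (adjusted p = 1.24e-05), with overlap at the extremes. Gstm3 had 5.75, 38.8 and 158 CPM, against 41.5, 97.2 and 399 CPM (−1.44 ± 0.49, adjusted p = 0.0206), and it was not called when these groups were fitted alone (adjusted p = 0.0584). Gsta3 fell by 0.68 ± 0.11 (adjusted p = 4.35e-06), Gstk1 by 0.40 and, among UGT genes, Ugt3a1 by 0.24. Of 6 hepatocyte markers 1 fell with PKA KD, and of 5 tested cholangiocyte markers 2 rose. The cholangiocyte sum ranged over 37.8 to 312 CPM in PKA KD and 28.1 to 103 CPM in Control, and its part in these results was not tested.

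Epac2 KD changed 3 of the 45 genes, beside 1.82% of all genes that rose and 2.74% that fell, 4.56% together. Sult2a7 rose by 2.23 ± 0.39 (adjusted p = 8.47e-05), with 0.859, 3.03 and 5.46 CPM in Epac2 KD, against 0.443, 0.64 and 0.968 CPM in Control. Only the lowest library overlapped Control, and limma-voom gave 2.05 with an adjusted p of 0.151. Ugt1a6b averaged 123 CPM in Epac2 KD and 167 CPM in Control (−0.44 ± 0.057, adjusted p = 1.67e-07). Ugt1a6a averaged 151 CPM and 197 CPM (−0.39 ± 0.07, adjusted p = 0.000154), and neither gene overlapped between the groups. Of all genes, 0.538% lay wholly below Control in Epac2 KD and 0.0368% wholly above. Ugt1a9 was not called at 0.77 (95% confidence interval 0.12 to 1.42, adjusted p = 0.209), with 15.4, 42.3 and 87.7 CPM in Epac2 KD.

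Compared with Gcgr KD directly, PKA KD was higher for 22 and lower for 4 of the 45 genes, beside 17.3% and 14.4% of all genes, 31.7% in either direction. Over the members the median log2 fold change was 0.33, and over all genes −0.00. Ugt1a6b and Sult1b1 were the 2 members wholly above Gcgr KD, and none lay wholly below, beside 1.69% and 1.91% of all genes. All 6 called SULT genes and all 9 called UGT genes were higher in PKA KD, as were 7 of 11 called GST genes. Sult2a7 (4.13, adjusted p = 3.82e-12), Sult1b1 (0.95, adjusted p = 5.6e-09), Ugt1a9 (0.91, adjusted p = 0.0348, and 0.0526 without the filter on low counts), Sult2a8 (0.73), Sult1a1 (0.58) and Ugt1a1 (0.52) were higher. Gstm2 had 66.3, 128 and 190 CPM in PKA KD, against 37.2, 62.6 and 105 CPM in Gcgr KD (1.03 ± 0.23, adjusted p = 0.000486), with overlap. Gstm3 (−1.47), Gsta4 (−0.98), Gstm1 (−0.58) and Gsta3 (−0.31) were lower in PKA KD. Stellate cell markers moved in the same comparison, with 4 of 7 lower in PKA KD and sums of 254 to 411 CPM against 298 to 644 CPM in Gcgr KD; their part was not tested.

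Loss and activation of protein kinase A can be set side by side across the experiments, which share no libraries. Of the 45 genes, 10 were called in opposite directions in PKA KD against Control and in Prkar1a KD against Control AAV with Control mAb, and 5 in the same direction. Those are 22.2% and 11.1% of the members, beside 10.9% and 10.2% of the 12746 genes tested in both. Gstm5, Sult1b1, Sult1c2, Sult2a7, Ugt1a6b, Ugt2b36, Ugt2b37 and Ugt2b38 rose with PKA KD and fell with Prkar1a KD, and Gsta4 and Gstk1 did the reverse. Gsto1 and Sult1d1 rose in both, and Gsta3, Gstm3 and Ugt3a1 fell in both. Ugt1a9, Gstp1 and Sult1a1, which rose with Prkar1a KD, were not called in PKA KD, at −0.17, −0.12 and 0.09, nor was Ugt1a1 at 0.32 (95% confidence interval 0.04 to 0.60, adjusted p = 0.0813).

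**Figure D5:**
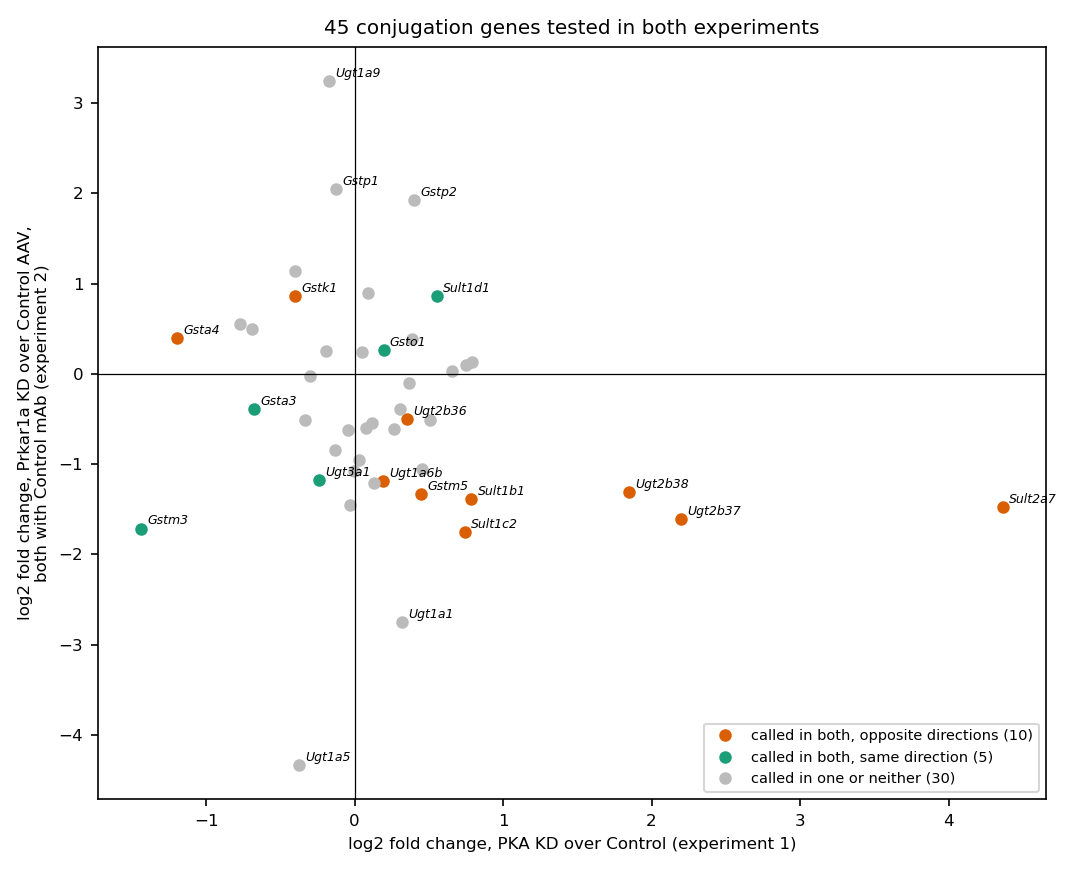
Log2 fold change of the 45 tested genes in PKA KD over Control (horizontal, experiment 1) and in Prkar1a KD over Control AAV, both with Control mAb (vertical, experiment 2), 1 point per gene. Orange marks the 10 genes called in both in opposite directions, green the 5 called in both in the same direction; Sult2a7 stands at 4.37 and −1.48, and Ugt1a9 at −0.17 and 3.24.

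Loss of the receptor by shRNA and its inhibition by antibody also came from separate libraries. Gstk1, Gstm6, Gstm7, Ugt1a9 and Ugt2b1 fell in both, which is 5 of the 9 falls with Gcgr KD and 5 of the 10 falls with Gcgr mAb. Over all genes tested in both experiments, the shares were 30.4% and 26.2%. Gstk1, Gstm7, Sult1a1 and Ugt1a9 fell with Gcgr KD and rose with Prkar1a KD, and as many, Gsta3, Gstm6, Ugt2a3 and Ugt2b1, fell with both. Among all genes, 30.4% of the falls with Gcgr KD rose with Prkar1a KD and 37.4% fell. Of the 24 falls with Gnas KD, 8 genes rose with Prkar1a KD (Gsta2, Gsta4, Gstk1, Gstm7, Gsto1, Sult1a1, Ugt1a9 and Ugt2b5) and 13 fell (Gsta3, Gstm1, Gstm2, Gstm4, Gstm6, Gstt1, Gstt2, Ugt1a5, Ugt1a6a, Ugt1a6b, Ugt2b1, Ugt2b36 and Ugt3a1). Over all genes, 30.6% of the falls with Gnas KD rose with Prkar1a KD and 37.5% fell.

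Genes around conjugation were counted from lists chosen with earlier results of these data known. For CAR and PXR targets, 7 of 10 fell and 1 rose in Prkar1a KD + Control mAb against Control AAV + Control mAb. Of all tested genes, 26.9% fell and 29.3% rose in that comparison. Cyp2b10 (−5.18), Cyp3a11 (−4.76) and Cyp2c37 (−2.96), which oxidise drugs, fell furthest, and Por, the electron donor of P450 enzymes, rose by 0.64. Of 5 AhR targets, Cyp1a2 (−2.22) and Cyp1a1 (−1.76) fell. Of 17 NRF2 targets, 8 fell, led by Tkt (−1.44), Taldo1 (−0.98) and Pgd (−0.92), and Cbr1 (0.87), Prdx1 (0.40) and Txnrd1 (0.28) rose. Of 21 tested regulators, 6 rose and 7 fell. Nr1i3, which encodes CAR, fell by 0.98, and Ppara by 1.06, whereas Esrra (0.80), Hnf4a (0.77) and Nr1i2, which encodes PXR (0.56), rose.

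Genes for supply and export of conjugates were counted in the same comparison, in which 56.2% of all genes were called. Of 12 genes of glutathione synthesis and turnover, 3 rose, namely Cth (2.45), Cbs (1.37) and Oplah (0.44), and 6 fell, among them Chac1 (−2.97), Ggct (−1.29) and Gsr (−0.75). Cth and Cbs make cysteine from homocysteine. Of 8 genes supplying the sulfate donor PAPS, 4 fell, among them Slc26a2 (−0.86) and Papss1 (−0.81), and Papss2 rose by 0.31. Of 7 efflux pumps, 4 fell, led by Abcg2 (−1.68), Abcc3 (−1.16) and Abcb1a (−1.14), and Abcb1b rose by 1.59. Of 9 other conjugating enzymes, 2 rose, among them Nnmt (3.24), and 5 fell, among them Inmt (−3.22) and Tpmt (−0.95).

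With Gcgr mAb under the control vector, 5 of the 12 glutathione genes fell and none rose, led by Cbs (−0.78), Cth (−0.57) and Gclc (−0.41), the rate-limiting synthesis enzyme. Of all tested genes, 5.27% fell and 2.92% rose in that comparison. Of 17 NRF2 targets 8 fell, among them Nqo1 (−0.62) and Cbr1 (−0.58), and Osgin1 (0.86) and G6pdx (0.60) rose. None of the 10 CAR and PXR targets was called. In Gnas KD, 8 of 17 NRF2 targets fell, led by Nqo1 (−0.98), Cbr1 (−0.93) and Pgd (−0.79), and Osgin1 rose by 1.02. Of all tested genes, 8.32% fell and 6.83% rose in Gnas KD. Nfe2l2, which encodes NRF2, fell by 0.46 there, and of 22 regulators 2 rose and 3 fell. Alas1 (−0.92), Por (−0.85) and Cyp2c29 (−0.81) were the 3 of 10 CAR and PXR targets that fell in Gnas KD. Ugdh, which makes the UGT donor UDP-glucuronic acid, fell by 0.62, and of 6 genes supplying that donor 1 rose and 3 fell.

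In PKA KD, 3 of 10 CAR and PXR targets rose and 2 fell, beside 17.7% and 14.8% of all tested genes. Cyp2b10 rose by 2.73 and Cyp2c55 by 1.17, and Alas1 fell by 1.13. Of 22 regulators, 4 rose and 3 fell, with Ppara (−1.16) and Nr1i2 (−0.65) among the falls. Chac2 (−1.01), Cbs (−0.88) and Gclc (−0.66) fell, and Ggct (0.62), Gclm (0.37) and Anpep (0.20) rose. Of 6 genes supplying UDP-glucuronic acid, 2 rose and 2 fell, and Ugp2, which makes UDP-glucose, fell by 1.33. In Gcgr KD, Cyp2b10 rose by 2.23 and was the CAR or PXR target called there.

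Sex-biased liver genes were counted because several SULT, GST and UGT genes differ between male and female mice. With Gcgr mAb under the control vector, 4 of 17 tested male-biased genes rose and 1 fell, and 4 of 15 tested female-biased genes fell, led by Cyp17a1 (−3.58). Of all tested genes, 2.92% rose and 5.27% fell in that comparison. In PKA KD, 7 of 18 male-biased genes rose and 1 fell, and of 15 female-biased genes 2 rose and 2 fell, beside 17.7% and 14.8% of all tested genes. In Prkar1a KD with Control mAb, 29.3% of all tested genes rose and 26.9% fell. There, 3 of 17 male-biased genes rose and 8 fell, and 5 of 15 female-biased genes rose and 5 fell. The part of these genes in the conjugation results was not tested.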

How the data were processed

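Strand-specific libraries were made from poly(A) RNA of liver with KAPA reagents, per the labels' protocols. The submitters' processing notes name bcl2fastq 2.17, FastQC, GRCm38 and mm10; the aligner and counter were not named there. The authors deposited expected counts per gene for each experiment, which were rounded to whole numbers. PCR copies were not removed by molecular identifiers, as far as the sources state.

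Genes passing filterByExpr were fitted within each experiment with edgeR 4.0.16 (R 4.3.3) by robust quasi-likelihood F tests after TMM scaling, with all groups of the experiment in the fit. Benjamini-Hochberg adjustment ran over all 13574 or 12847 tested genes, and calls needed an adjusted p under 0.05. Intervals are 95%. CPM values are scaled by TMM library sizes. Lowest, median and highest levels are given for members called with an absolute log2 fold change of at least 1 in a comparison of that experiment and a mean of at least 1 CPM in a group; any called member may be named, and of the other lists up to 3 called genes per direction and comparison. Members and lists (13 pathway and 11 cell type lists) were chosen with earlier results of these data known. Alternatives were RLE scaling, no filter, DESeq2 1.42.0, limma-voom 3.58.1, a replicate block, fits of only the groups compared and fits without libraries that stood apart. The test was checked on simulated data with an equal spread for every gene and group. That setting does not cover members with a larger spread or one that differs between groups, such as Sult2a7. Sequences came from RefSeq, GRCm38.p6.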

Additional observations from a re-analysis of the deposited data

Results flagged for a closer look

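A library stood far from the others of its group in 25 of the 147 gene and group pairs examined, where chance would give about 1 in 20 for independent, normally distributed values, which these need not be. These came from 13 libraries, and 8 of them from replicate 2 of Control AAV + Gcgr mAb.

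In that library, Gsta1 (49.0 CPM, group median 11.0), Gstm3 (239, median 27.6) and Sult1a1 (272, median 191) were high. Sult1b1 (11.7 CPM, median 31.2), Ugt1a1 (366, median 689), Ugt1a6a (96.8, median 162), Ugt1a6b (90.4, median 147) and Ugt3a1 (67.6, median 127) were low there. In replicate 3 of that group, Gstp1 (1159 CPM, median 478) and Ugt2b38 (5.27, median 2.02) were high, and in replicate 10 of Control AAV + Control mAb Gstp1 was high (1044, median 628).

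In the Prkar1a KD + Gcgr mAb group, replicate 7 was low for Gstk1 (156 CPM, median 269) and Ugt3a1 (23.2, median 77.4), replicate 8 was high for Gstm3 (172, median 45.5) and Ugt1a5 (21.6, median 6.30), and replicate 2 was high for Ugt2b38 (4.59, median 1.01). In Prkar1a KD + Control mAb, replicate 1 was low for Ugt1a9 (288 CPM, median 427) and still above every Control AAV library.

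In experiment 1 every such library was high. Gstm3 had 317 CPM in replicate 1 of Gcgr KD (median 128), 158 in replicate 5 of PKA KD (median 38.8) and 399 in replicate 6 of Control (median 97.2), and that Control library also had 3326 CPM of Gstm1 (median 1916). In Epac2 KD, Gstm2 had 158 CPM in replicate 5 (median 55.6), and replicate 7 had 1.81 CPM of Ugt2b37 (median 0.344) and 7.61 CPM of Ugt2b38 (median 0.625). Ugt2b38 had 4.38 CPM in replicate 7 of Control (median 0.424).

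The effect of Gcgr mAb differed between Prkar1a KD and Control AAV for 8 genes by the interaction test of edgeR (adjusted p under 0.05), with log2 differences of 1.65 for Ugt1a9, 1.65 for Gstm2, 1.93 for Sult1e1, 0.76 for Ugt2b1, 0.68 for Gstm6, 0.59 for Gstm4, 0.49 for Gstk1 and 0.46 for Gstm7.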

How the results depend on the processing

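Over the alternatives run, 727 values of named genes kept direction and call, 14 gained a call, 23 lost it and 0 reversed. Numbers of called conjugation genes moved by over 1.5 times as follows, and the causes were not tested. Fitting only the groups compared gave 1 rise in Gcgr KD and 1 in Gnas KD (0 each with all groups), and 608 called genes of all for Gcgr mAb under the control vector (1052 with all groups). Without the filter on low counts, Gcgr KD gave 5 falls (9 with it) and Gcgr mAb 1 rise (2 with it). Epac2 KD gave 2 rises by DESeq2, 0 by limma-voom and 2 without PKA KD replicate 3, against 1. Gcgr mAb gave 0 rises by limma-voom and 1 without Control AAV + Control mAb replicate 10. The interaction gave 1 negative call without Control AAV + Gcgr mAb replicate 2 and 2 without all libraries that stood apart, against 0.

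Whether the replicate numbers pair the samples was not settled. Same-numbered libraries deviated together with a mean correlation of 0.0348 in experiment 1 and 0.0285 in experiment 2. For libraries of different number the means were −0.00282 and −0.00171. Of 50 and 40 libraries, 9 and 2 correlated best with their own number, and the number to be had by chance was not worked out. With replicate number as a block, Gnas KD gave 23 falls and PKA KD 11 rises, and the other counts of called conjugation genes were the same as without it; Ugt2b38 in PKA KD lost its call (1.75, adjusted p = 0.0695).

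Other changed calls were as follows. Gstk1 lost its interaction call without the filter and by limma-voom, Sult1e1 with Gcgr mAb lost its call without the filter (adjusted p = 0.0534), and Ugt2b37 lost its call in PKA KD against Gcgr KD without PKA KD replicate 3 (0.80, against 1.07). With Gcgr mAb, Ugt1a1 gained a call without replicate 2 of the antibody group (0.42, against 0.35) and with its groups fitted alone, and Gstp1 (−0.45, against −0.25) and Ugt2b37 (0.80, against 0.74) gained one without replicate 3. Ugt1a5 in Gcgr KD gained one by limma-voom (−1.13), Gstm3 in Prkar1a KD with Gcgr mAb also without all libraries that stood apart (1.14), the Gstm3 interaction also without those (2.74), and the Gstm3 and Ugt1a6a interactions by DESeq2 (2.05 and 0.40). Counting error limits genes near 1 CPM, such as Sult1e1, Sult2a7 and Ugt2b38.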
